A study of Mus musculus with 12 samples.

Results

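The genes described here are the cytosolic ribosomal protein genes, taken as the rows of the deposited expression table whose symbol begins with Rpl or Rps followed by a digit. Of 94 symbols with that form, 10 that begin with Rps6k (S6 kinases) and 3 that contain -ps (pseudogenes) were left out. This left 81 of 22552 genes, 48 of the large subunit (Rpl) and 33 of the small subunit (Rps). Of these, 7 have symbols that end in l or l1 and are paralogs of another ribosomal protein gene. The symbol rule has limits. Rps19bp1 was kept by it but encodes a protein that binds Rps19, while Rplp0, Rplp1, Rplp2, Rpsa and Fau are among the genes that encode ribosomal proteins under other symbols. Rpl34 was also left out, because its row is shared with a pseudogene (Rpl34,Rpl34-ps1).

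RNA sequencing was done on 12 samples of C57Bl/6 mice, 6 of myoblasts and 6 of striated muscle. The mice lacked Lbr, which encodes the lamin B receptor of the inner nuclear membrane, or Lmna, which encodes lamins A and C of the nuclear lamina, or were wild type. Homozygous knockouts and wild types of a litter came from crosses of heterozygotes, and the design compares the knockouts with wild types of their litter. Expression is given as FPKM, a fragment count scaled by transcript length and sequencing depth, in 7 columns with a single value per group. The myoblast columns were wild type of the Lbr litter (1 sample), Lbr knockout (2 samples), wild type of the Lmna litter (1 sample) and Lmna knockout (2 samples). The muscle columns were wild type, Lbr knockout and Lmna knockout, each standing for 2 samples. Values below are given in that order. The wild-type muscle column names no litter, and both muscle comparisons use it, so they are not known to be matched by litter. The sources used here do not say how the values of 2 samples were merged, and they give no age or sex for the groups. Each group has 1 value and no error between replicates.

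A ribosome has a small subunit, which holds the mRNA and reads the codons, and a large subunit, which joins the amino acids, and each is built of ribosomal RNA and of many proteins used once per particle. Ribosomal protein mRNAs are among the most abundant in growing cells. Most of them start in a run of pyrimidines, the terminal oligopyrimidine tract, through which mTOR and the RNA-binding protein Larp1 control their translation. Skeletal muscle, a tissue of non-dividing fibres, also carries muscle forms of some translation proteins, of which Rpl3l and Eef1a2 are the known examples. Ribosomal protein genes have given rise to a large number of processed pseudogenes, so that short reads often match more than a single place in the genome.

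The start-site sequences were searched for such runs. RefSeq (build GRCm38.p6) gave promoters for 61 of the 81 genes, with 72 annotated starts. In the window from 20 bases before to 30 bases after the start, on the gene's own strand, 32 of the 72 starts (44.4%) held a run of at least 8 bases that were each C or T. The same held for 19.0% of the 32851 starts of all genes in that set. Of the 7 paralogs, 2 had such a run. The windows of 8 genes described below are shown 5′ to 3′, with the longest pyrimidine run in capitals. Rpl35 and Rps12 differed between muscle and myoblasts, as did Rps21 and Rpl3l, Rpl15 and Rpl4 were among the steadiest genes, and Rpl41 was the most abundant. Rps10 adds a small-subunit gene with a long run.
Rpl35 (chr2:39005102-39005151, minus strand): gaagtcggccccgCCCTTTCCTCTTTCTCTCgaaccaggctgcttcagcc
Rpl15 (chr14:18270957-18271006, minus strand): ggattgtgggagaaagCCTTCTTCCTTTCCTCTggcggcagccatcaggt
Rpl4 (chr9:64173367-64173416, plus strand): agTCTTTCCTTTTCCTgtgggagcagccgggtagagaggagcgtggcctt
Rps10 (chr17:27635215-27635264, minus strand): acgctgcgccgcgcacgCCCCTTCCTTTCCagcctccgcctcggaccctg
Rps12 (chr10:23787180-23787229, minus strand): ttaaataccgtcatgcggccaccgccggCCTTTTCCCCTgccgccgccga
Rps21 (chr2:180257359-180257408, plus strand): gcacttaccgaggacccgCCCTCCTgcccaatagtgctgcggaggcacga
Rpl41 (chr10:128549139-128549188, minus strand): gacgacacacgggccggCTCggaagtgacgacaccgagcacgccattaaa
Rpl3l (chr17:24727806-24727855, plus strand): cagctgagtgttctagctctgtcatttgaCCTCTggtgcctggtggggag
The longest run was 18 bases in Rpl35, 17 in Rpl15, 14 in Rpl4, 13 in Rps10 and 11 in Rps12. It was 7 bases in Rps21, 5 in Rpl3l and 3 in Rpl41 at these starts. The runs of Rpl35, Rpl15 and Rps10 span the annotated start, that of Rps12 lies after it and that of Rpl4 before it. A window counts letters around an annotated start and does not show where transcription began in these samples.

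Ribosomal protein mRNAs were abundant in every column. Their share of the summed FPKM was 5.84%, 6.23%, 6.91% and 7.30% in the myoblast columns and 7.12%, 7.98% and 7.35% in the muscle columns. The median gene of the set stood at 192, 199, 270 and 273 FPKM in myoblasts and at 391, 445 and 381 FPKM in muscle. For comparison, the median of all genes at 1 FPKM or more was 9.88 to 10.3 FPKM in the myoblast columns and 6.16 to 6.49 FPKM in the muscle columns. Between 59 and 69 of the 81 genes reached 100 FPKM in a column. The muscle medians exceeded all myoblast medians, and among myoblasts both columns of the Lmna litter exceeded both columns of the Lbr litter. In bulk RNA, fewer cells of a type and less RNA per cell cannot be told apart.

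**Figure D1:**
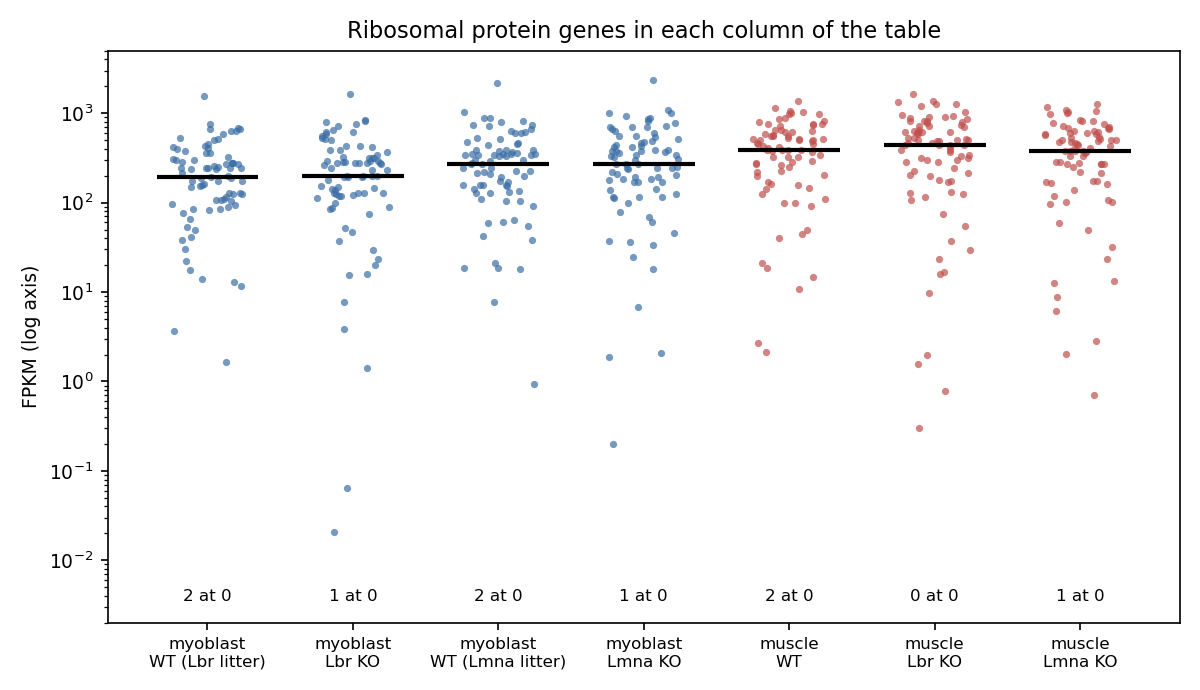
FPKM of the 81 ribosomal protein genes (points, log axis) in each of the 7 columns, with the median of the set as a black bar and the number of genes listed at 0 below. The medians run from 192 FPKM in the Lbr litter's wild-type myoblasts to 445 FPKM in Lbr-knockout muscle, and no column has replicate values.

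The genes of a particle whose parts are used in equal numbers did not have equal FPKM. Rpl41, which encodes the smallest ribosomal protein, had the highest mean, 1718 FPKM, with 1563, 1652, 2158 and 2349 FPKM in myoblasts and 1373, 1659 and 1269 FPKM in muscle. Next came Rpl39, a small protein of the peptide exit tunnel, with a mean of 995 FPKM, and Rpl32 with 935, Rps20 with 828 and Rpl4 with 757 FPKM. The lowest means belonged mostly to paralogs and to genes with a copy elsewhere in the table. Rpl10l, an intronless paralog known from the testis, was listed at 0 in 5 of 7 columns and at 0.0209 FPKM in Lbr-knockout myoblasts and 0.305 FPKM in Lbr-knockout muscle. Rpl39l had a mean of 3.68 FPKM, Rpl7l1 16.05 and Rps4y2 18.5 FPKM. The row Rps4y2 is the gene that RefSeq calls Rps4l, a relative of the X-linked Rps4x.

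The genes with the narrowest ranges differed in level. Rpl5, which carries 5S ribosomal RNA into the large subunit, was at 298, 280, 270 and 272 FPKM in myoblasts and at 252, 283 and 248 FPKM in muscle. Its whole range was 0.26 on the log2(FPKM + 1) scale, the narrowest of the set. Rpl4, which lines the exit tunnel, ranged by 0.28, from 688 to 834 FPKM. Rpl10l (0.38), Rpl15 (0.44) and Rps25 (0.48) followed, the first because it was at or near 0. The widest ranges were those of Rpl3l (8.80), Rps27a (8.71), Rps27 (8.13), Rps12 (4.76) and Rps21 (4.39), each with a tissue difference or a column at 0 that is described below.

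The values of several of these genes may depend on how reads were divided among near-identical sequences, which was not tested. In the GENCODE M21 transcripts, a median of 94.2% of the 31-base windows in the coding sequence of a ribosomal protein gene also occurred in an annotated pseudogene, against a median of 0% for 10839 other genes. At least 50% of the windows were shared in 70 of the 81 genes and in 4.23% of the other genes. Among those at the low end were Rpl3l and Rps19bp1 with 0% and Rpl8 with 11.1%. The sources used here do not say how reads that fit several places were assigned, so differences of the shared genes, large ones included, are uncertain.

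For 10 genes the table itself lists 12 rows of near-identical copies, each sharing at least 50% of the windows. Rpl26, at the exit of the peptide tunnel, held 0.476% to 8.22% of the sum of its own row and the rows Gm15772 and Gm10136. Rpl30 held 1.71% to 11.1% of its sum with Gm12191. For Rps27, whose sequence is wholly contained in Gm9846 (the gene Rps27rt of GENCODE), the own row held 99.97%, 62.5%, 99.8% and 48.5% of the sum in myoblasts but 0%, 0.366% and 0.830% in muscle. The sum of both rows was 176, 242, 279 and 351 FPKM in myoblasts and 345, 428 and 339 FPKM in muscle, so the drop in the Rps27 row is absent from the sum. Rows of different transcript lengths are added here only to show where the signal lies.

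The remaining copies split by tissue as well. Rpl22l1 held 49.6% to 50.3% of its sum with Gm15421 in all 4 myoblast columns and 79.9% to 81.4% in all 3 muscle columns. Rpl36 held 50.3% to 52.7% in myoblasts and 83.4% to 85.5% in muscle, and Rps26 75.4% to 76.6% against 94.6% to 95.7%. Rpl21 held 71.1% to 75.004% against 96.3% to 96.9%, and Rps15a 10.1% to 12.1% against 35.7% to 39.8%. Rps23, with the row Gm15450,Rps23, went the other way, with 21.4% to 34.8% in myoblasts and 9.32% to 11.1% in muscle. Rpl34 showed the same kind of split: the row Rpl34,Rpl34-ps1 was at 106 to 123 FPKM in myoblasts and 10.6 to 14.1 in muscle, and the row Rpl34-ps1 at 0 to 3.91 FPKM and 471 to 589 FPKM. Library kit goes with tissue in this study (NuGEN Ovation RNA-Seq for myoblasts, NuGEN complete RNA-Seq for muscle), and the 2 cannot be told apart.

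**Figure D2:**
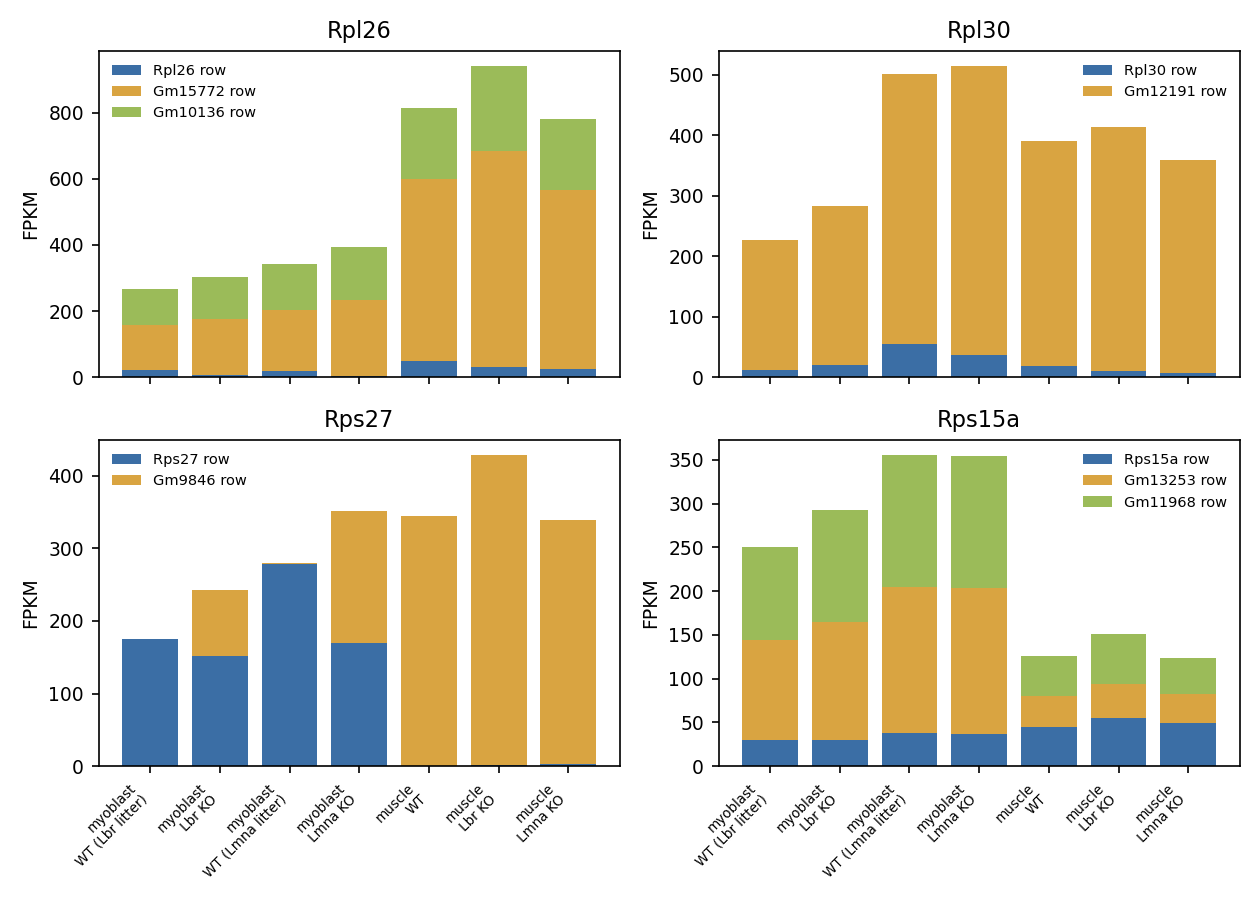
FPKM of Rpl26, Rpl30, Rps27 and Rps15a (blue, own row) stacked with the table rows of their near-identical copies (orange and green) in the 7 columns. The own row held at most 8.22% of the stack for Rpl26, 11.1% for Rpl30 and 39.8% for Rps15a, while the own row of Rps27 held 48.5% to 99.97% in myoblasts and at most 0.830% in muscle.

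The labels were checked on other genes. Lbr was at 16.1 FPKM in its litter's wild-type myoblasts and 7.71 in the Lbr knockout, and at 11.8 and 1.87 FPKM in muscle. Lmna was at 147 FPKM in wild-type myoblasts of its litter and 18.5 in the Lmna knockout, and at 59.5 and 22.6 FPKM in muscle. Of 6 myoblast markers, 3 or 4 reached 1 FPKM in a myoblast column and all 6 did in muscle. Myf5 and Pax7 stayed under 0.5 FPKM in all 4 myoblast columns, Myod1 was at 2.09 to 5.51 FPKM and Des at 18.7 to 85.2 FPKM, each below its muscle columns. Chrna1 was at 2.67 to 14.1 FPKM in myoblasts and 6.12 to 8.22 FPKM in muscle. The summed FPKM of 10 fibre markers was 51224 to 66928 in muscle and 35.4 to 161 in myoblasts. That of 4 fibroblast markers was 1068 to 1182 in myoblasts and 769 to 839 in muscle, most of it from Col1a1. Col1a1 (1027 to 1151 against 426 to 459 FPKM) and Pdgfra (9.53 to 17.7 against 6.95 to 9.09 FPKM) were higher in every myoblast column. Dcn (20.3 to 40.2 against 254 to 287 FPKM) and Lum (0.303 to 2.42 against 51.1 to 91.4 FPKM) were lower in every myoblast column.

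In myoblasts lacking Lbr, ribosomal protein genes were slightly above their litter's wild type. Differences are given on the log2(FPKM + 1) scale, which understates changes of low values, over genes averaging 1 FPKM or more and with no compared column at 0. A gene was called at 2-fold, a log2 difference of 1. With a single column on each side there is no test and no replicate check. The median difference of 78 genes was 0.16, against 0.05 for all 11472 genes and 0.08 for 546 other abundant genes (averaging 100 FPKM or more). In all, 64 of the 78 (82.1%) lay above 0, against 60.9% of all genes. A single gene was called, against 2.63% of all genes (2.51% higher and 0.122% lower), and it was lower: Rpl26 was at 22.0 FPKM in wild type and 7.68 FPKM in the knockout, a difference of -1.41. Summed with its copies Rpl26 was at 268 FPKM in wild type and 302 FPKM in the knockout, a difference of 0.17 in the other direction. The largest positive differences were those of Rpl30 (0.73), Rps4y2 (0.71) and Rpl22l1 (0.56), all within 2-fold. Rps27a, which encodes ubiquitin fused to a small-subunit protein, was listed at 0 in Lbr-knockout myoblasts and at 54.0, 63.8 and 69.5 FPKM in the other myoblast columns. An exact 0 in such a table can be a failed estimate, so it was left out of this comparison and no fold is given. In the same comparison all 7 macrophage markers passed 2-fold upward (median 1.81), and all 7 compared fibre markers lay above 0 (median 1.26, their sum over 10 markers 56.2 FPKM in wild type and 161 FPKM in the knockout). Their part in the differences was not tested.

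Myoblasts lacking Lmna gave a similar picture beside their own wild type. The median difference of 79 genes was 0.16, against 0.04 for 11411 genes and 0.11 for 533 other abundant genes, and 69 of 79 (87.3%) lay above 0, against 58.2% of all genes. Of the set, 2 genes fell by at least 2-fold and 0 rose, against 1.23% of all genes called (0.578% lower and 0.648% higher). Rpl26 was at 18.8 FPKM in wild type and 1.88 FPKM in the knockout, a difference of -2.78, but its sum with its copies was at 344 FPKM in wild type and 395 FPKM in the knockout, a difference of 0.20. Rps3a, a small-subunit protein near the mRNA exit that RefSeq calls Rps3a1, was at 393 FPKM in wild type and 195 FPKM in the knockout, a difference of -1.01. It was the lowest of the 7 columns for Rps3a, which was at 363 and 431 FPKM in the Lbr litter and 433 to 508 FPKM in muscle. The call lies at the threshold, and 95.0% of the windows of Rps3a also occur in pseudogenes. Among positive differences, Rps4y2 stood at 0.65, Rps19bp1 at 0.42 and Rps28 at 0.42. Fibre markers went the other way than in the Lbr litter, with 0 of 4 compared above 0 (median -1.86, summed FPKM 105 in wild type and 35.4 in the knockout), and 0 of 7 macrophage markers lay above 0 (median -0.28). Their part was not tested.

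The wild-type myoblasts of both litters differed from each other by a larger median than either knockout did from its wild type. The wild type of the Lmna litter exceeded that of the Lbr litter by a median of 0.43 over 79 genes, against 0.07 for 11402 genes and 0.30 for 540 other abundant genes. In all, 75 of 79 (94.9%) lay above 0, against 57.4% of all genes and 79.4% of the other abundant genes. All 33 small-subunit genes did. Of the set, 2 genes were called higher and 0 lower, against 2.71% of all genes in either direction (2.03% higher and 0.675% lower). Rpl30 was at 55.5 and 11.6 FPKM, a difference of 2.17, and at 501 and 226 FPKM with its copy, a difference of 1.14. Rpl37a, a zinc-finger protein of the large subunit, was at 444 and 197 FPKM, a difference of 1.17. With 1 sample on each side, litter, animal and culture cannot be told apart.

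The choice of wild type therefore decided the sign for the Lbr knockout. Set against the other litter's wild type, Lbr-knockout myoblasts had a median of -0.25 with 5 of 78 genes above 0. Lmna-knockout myoblasts then had a median of 0.58 with 75 of 79 above 0. Other abundant genes also differed between the wild types (median 0.30), so the change of sign is not shown to be particular to this set. Of 78 genes measured in all 4 myoblast columns, 66 (84.6%) were highest in the Lmna knockout and 62 (79.5%) lowest in the wild type of the Lbr litter. The order Lmna knockout, Lmna-litter wild type, Lbr knockout, Lbr-litter wild type held in full for 57 (73.1%). Among 12114 genes of all kinds these shares were 36.5%, 36.9% and 17.6%. Both knockouts stood above their own wild type in 59 of the 78 (75.6%, against 36.3% of all genes) but above both wild types in 2 (2.56%, against 11.5%). Ordered by litter first and by genotype second, Rpl24, a protein of an intersubunit bridge, read 153, 199, 245 and 299 FPKM. The summed FPKM of 7 macrophage markers was 55.1 in the wild type of the Lbr litter and 182 to 222 in the other myoblast columns, and its part in the order was not tested.

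**Figure D3:**
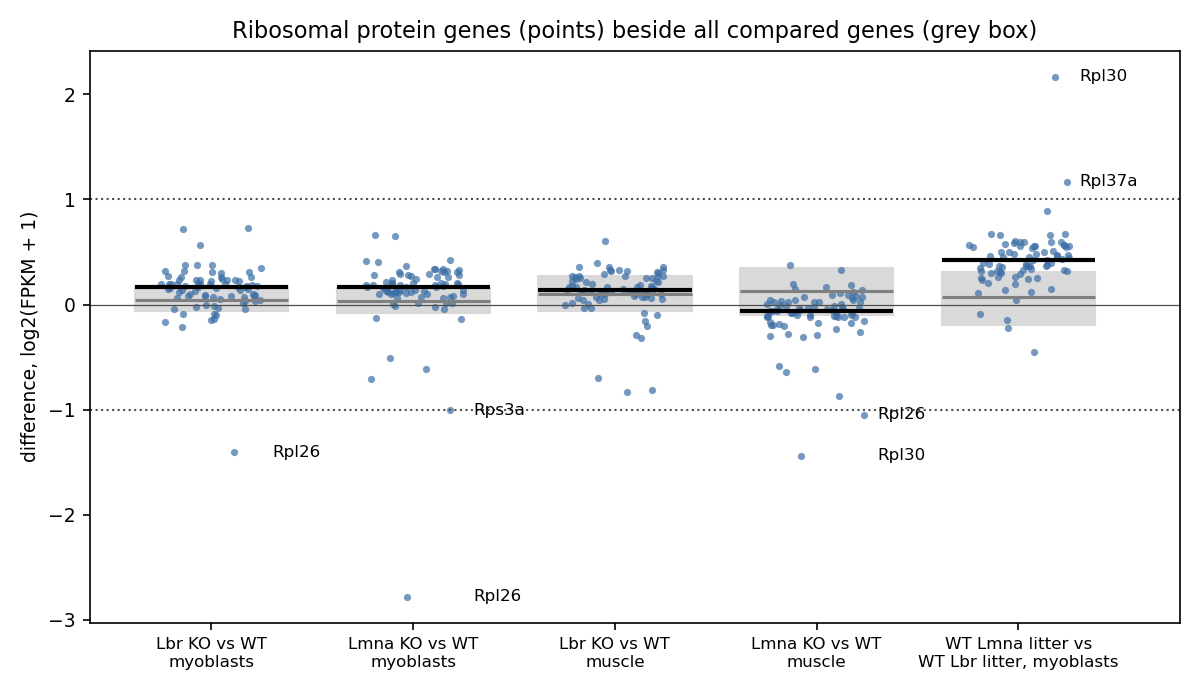
Differences in log2(FPKM + 1) of ribosomal protein genes (points) in 5 comparisons, with their median in black and the median and interquartile range of all compared genes in grey. Dotted lines mark 2-fold, the labelled genes lie beyond it, and the litters' wild types differ by a median of 0.43.

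In muscle lacking Lbr, ribosomal protein genes lay just above wild type and none was called. The median of 79 genes was 0.13, against 0.10 for 12000 genes and 0.02 for 567 other abundant genes. In all, 67 of 79 (84.8%) lay above 0, against 66.6% of all genes, and 0 of 79 passed 2-fold, against 1.59% of all genes (1.32% higher and 0.275% lower). The largest positive differences were those of Rps4y2 (0.60), Rps20 of the small-subunit head (0.40), Rpl28 (0.36) and Rpl36 (0.36). Rpl30 (-0.83), Rpl39l (-0.81) and Rpl26 (-0.70) had the largest negative ones. Summed with their copies, Rpl30 (0.08) and Rpl26 (0.21) lay above 0 instead. Rpl39l was low, falling from 2.13 to 0.783 FPKM. The summed FPKM of 7 lymphoid markers was 12.2 in wild-type muscle, 56.7 in the Lbr knockout and 33.4 in the Lmna knockout, all 7 reaching 1 FPKM in both knockouts, and its part in these differences was not tested.

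In muscle lacking Lmna the set did not lie above wild type. The median of 79 genes was -0.06, against 0.13 for 12025 genes and 0.00 for 565 other abundant genes, and 26 of 79 (32.9%) lay above 0, against 65.5% of all genes. Of the set, 2 genes were called lower and 0 higher, against 2.74% of all genes in either direction (0.782% lower and 1.95% higher). Rpl30 was at 6.14 FPKM and Rpl26 at 23.2 FPKM in the knockout, against 18.4 and 49.1 FPKM in wild type, differences of -1.44 and -1.05. With their copies both were close to wild type, at -0.12 and -0.06. The largest positive differences were those of Rps9 (0.38) and Rps14 (0.32). Of 6 paralogs compared, 0 lay above 0, with a median of -0.43. Proliferation genes lay below wild type as well, with 0 of 12 above 0 (median -0.62, summed FPKM 106 in wild type and 64.4 in the knockout). So did 26 of 37 ribosome assembly genes, with a median of -0.15, and fibre markers had a median of -0.35. Their part was not tested. Both muscle comparisons use the same wild-type column, so they are not independent. Of 79 genes, 63 (79.7%) were highest in the Lbr knockout, 11 in wild type and 5 in the Lmna knockout, against 35.3%, 19.6% and 45.2% of 12312 genes.

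A limma fit of all 7 columns, with tissue and genotype as additive terms and 3 residual degrees of freedom, tested each knockout with more than 1 column on each side. It pools the wild types of both litters. It called 0 of 80 ribosomal protein genes for either knockout at an adjusted p under 0.05 (Benjamini-Hochberg over 12454 genes). Of all genes 0 (0%) were called for Lbr and 1 (0.00803%), the pseudogene Atp6v0c-ps2, for Lmna. At an unadjusted p under 0.05 there were 2 ribosomal protein genes for each knockout, among 275 and 479 of all genes. For Lbr these were Rpl26 (-1.12, SE 0.37) and Rps27a (-3.18, SE 1.26, with its column at 0 included), and the smallest adjusted p was 0.99986. For Lmna these were Rpl26 (-2.09, SE 0.37) and Rps3a (-0.61, SE 0.24), with a smallest adjusted p of 0.953. The median of the set was 0.06 for Lbr and 0.16 for Lmna. With a term for litter in the myoblast columns, which left 2 residual degrees of freedom, the medians were 0.18 and 0.06, and again 0 of 80 genes were called for either knockout (smallest adjusted p 0.987 and 0.777). At an unadjusted p under 0.05 there were then 10 and 5 of the set, among 579 and 672 of all 12454 genes. A fit with a term for the difference between tissues in a knockout's effect left 1 residual degree of freedom and called 0 of 80 genes, with a smallest adjusted p of 0.184, for Rps27a in the Lbr knockout.

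Muscle and myoblasts differed far more. In the same fit, with columns of a tissue as its replicates, 58 of 80 ribosomal protein genes (72.5%) were called at an adjusted p under 0.05, 40 higher and 18 lower in muscle. Calls were as common over all genes, 78.7% of 12454, but there 27.7% were higher and 51% lower. The median difference was 0.43 for the set and -0.47 for all genes. The counts depend on scaling. With columns centred on their medians 49 of the set were higher and 7 lower, against 38.1% and 37.1% of all genes. With quantile normalization 36 were higher and 26 lower, against 34.4% and 42.5%. With columns rescaled to the same sum over other genes 35 were higher and 30 lower, against 22.4% and 58.3%. Large-subunit genes had a median of 0.68, with 26 of 47 higher and 8 lower, and small-subunit genes 0.09, with 14 of 33 higher and 10 lower. The difference between subunits was not tested. The p-values measure the spread between columns, and library kit cannot be told apart from tissue.

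**Figure D4:**
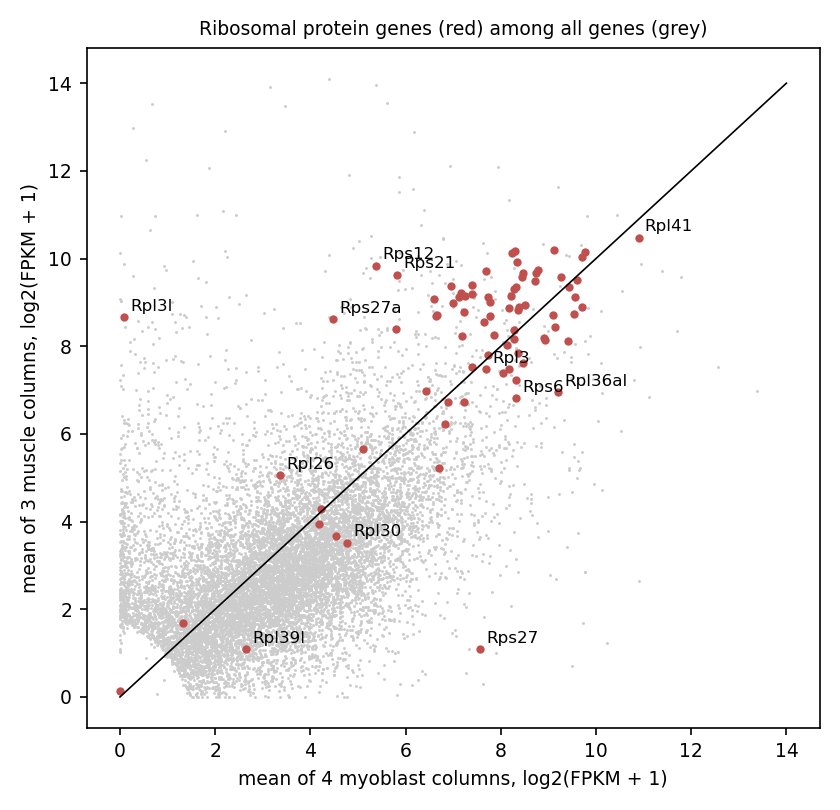
Mean log2(FPKM + 1) of the 3 muscle columns against that of the 4 myoblast columns for the ribosomal protein genes (red) among all genes (grey), with the line of equality. Rpl3l, Rps12, Rps21 and Rps27a lie far above the line, and Rps27, Rpl36al and Rpl39l far below it.

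Among large-subunit genes the greatest rise was in Rpl3l. It was listed at 0 in both wild-type myoblast columns and at 0.0650 and 0.2001 FPKM in the Lbr-knockout and Lmna-knockout myoblasts. In muscle it was at 389, 445 and 376 FPKM. The fitted difference was 8.54 (SE 0.13, adjusted p = 4.8e-08), and none of its coding windows occurs in a pseudogene. Its parent Rpl3, which lies at the peptidyl transferase centre, was at 174, 195, 216 and 241 FPKM in myoblasts and 159, 200 and 172 FPKM in muscle. The Rpl3 difference was -0.25 (SE 0.17, 95% interval -0.64 to 0.15) and was not called. By these rows, muscle columns held more Rpl3l than Rpl3 on the per-length scale, and myoblast columns almost only Rpl3. The comparison is uneven, since 97.4% of the Rpl3 windows also occur in pseudogenes, against 0% for Rpl3l.

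The 250 bases before the first RefSeq start of Rpl3l (GRCm38.p6, chr17:24727576-24727825, plus strand) are shown with matches to CANNTG in capitals, the E-box letters that MyoD-type factors can bind, which read the same on both strands.
Rpl3l: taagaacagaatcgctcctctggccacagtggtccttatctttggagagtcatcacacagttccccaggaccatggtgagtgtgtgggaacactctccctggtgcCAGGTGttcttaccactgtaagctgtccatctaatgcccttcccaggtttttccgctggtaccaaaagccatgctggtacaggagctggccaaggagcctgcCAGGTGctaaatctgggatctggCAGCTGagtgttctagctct
There are 3 matches in this stretch. Of all 32851 starts, 66.2% have at least 1 match in their 250 bases and 12.2% have 3 or more. The MEF2 motif was not found in it, and 0.508% of all starts have it. A match describes letters only, and binding was not measured here.

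Other large-subunit genes rose to a lesser degree. Rpl21 was at 49.1, 52.0, 58.5 and 61.0 FPKM in myoblasts and 328, 342 and 333 FPKM in muscle, a difference of 2.57 (SE 0.15), and of 2.19 with its copy BC004004. Rpl35a was at 76.1 to 113 FPKM in myoblasts and 508 to 598 FPKM in muscle (2.46). Rpl36a was at 82.9 to 116 FPKM and 375 to 490 FPKM (2.04). Rpl26 (1.96) and Rpl36 (1.97) were also called higher, at 1.35 and 1.26 with their copies. Rpl28, Rpl31, Rpl35, Rpl37 and Rpl38 lay between 1.84 and 1.97, and Rpl35, for which the start sequence is printed above, read 239, 246, 354 and 380 FPKM in myoblasts and 1013, 1261 and 1076 FPKM in muscle.

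Several large-subunit genes were lower in muscle. Rpl36al, the paralog of Rpl36a, was at 524, 554, 606 and 697 FPKM in myoblasts and 147, 128 and 97.5 FPKM in muscle, a difference of -2.25 (SE 0.21, adjusted p = 3.86e-05). The rows of Rpl36a and Rpl36al thus changed places: the paralog was the higher of the pair in all 4 myoblast columns and the lower in all 3 muscle columns. Pseudogenes share 100% of the windows of Rpl36a and 89.2% of those of Rpl36al. Windows shared within the pair were not counted, so the part of read assignment in this exchange was not tested. Rpl29 was at 245 to 435 FPKM in myoblasts and 138 to 169 FPKM in muscle (-1.11). Rpl10a, of the large subunit's mobile stalk, was at 672 to 1015 FPKM and 457 to 500 FPKM (-0.85). With columns centred on their medians Rpl10a no longer passed (-0.37).

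The other paralogs did not follow a common course. Rpl39l, known from the testis, was at 3.68 to 7.65 FPKM in myoblasts and 0.712 to 2.13 FPKM in muscle (-1.51), far under Rpl39 at 684 to 1035 and 1019 to 1255 FPKM. Rpl22l1 was at 84.5 to 128 FPKM in myoblasts and 59.1 to 90.8 FPKM in muscle (-0.59, adjusted p = 0.0368), and Rpl22 at 90.4 to 140 and 98.2 to 108 FPKM (-0.19, not called). The difference of Rpl22l1 was -1.28 with its copy, while the call of its own row was lost in 5 of 7 fits that left out a column, and with centring (-0.11). Rpl7l1 was at 15.5 to 18.1 and 12.6 to 16.1 FPKM (-0.24, not called), and Rpl7 at 276 to 378 and 447 to 459 FPKM (0.45, adjusted p = 0.0414). Rps27l, a gene induced by p53, was at 177 to 306 and 269 to 328 FPKM (0.39, not called). Rps4y2 was at 13.97 to 34.0 and 8.86 to 16.9 FPKM (-0.94, adjusted p = 0.0152), and Rps4x at 641 to 872 and 538 to 579 FPKM (-0.45, adjusted p = 0.051). Rpl10l did not reach the filter, and its parent Rpl10 was at 246 to 339 and 452 to 475 FPKM (0.68).

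**Figure D5:**
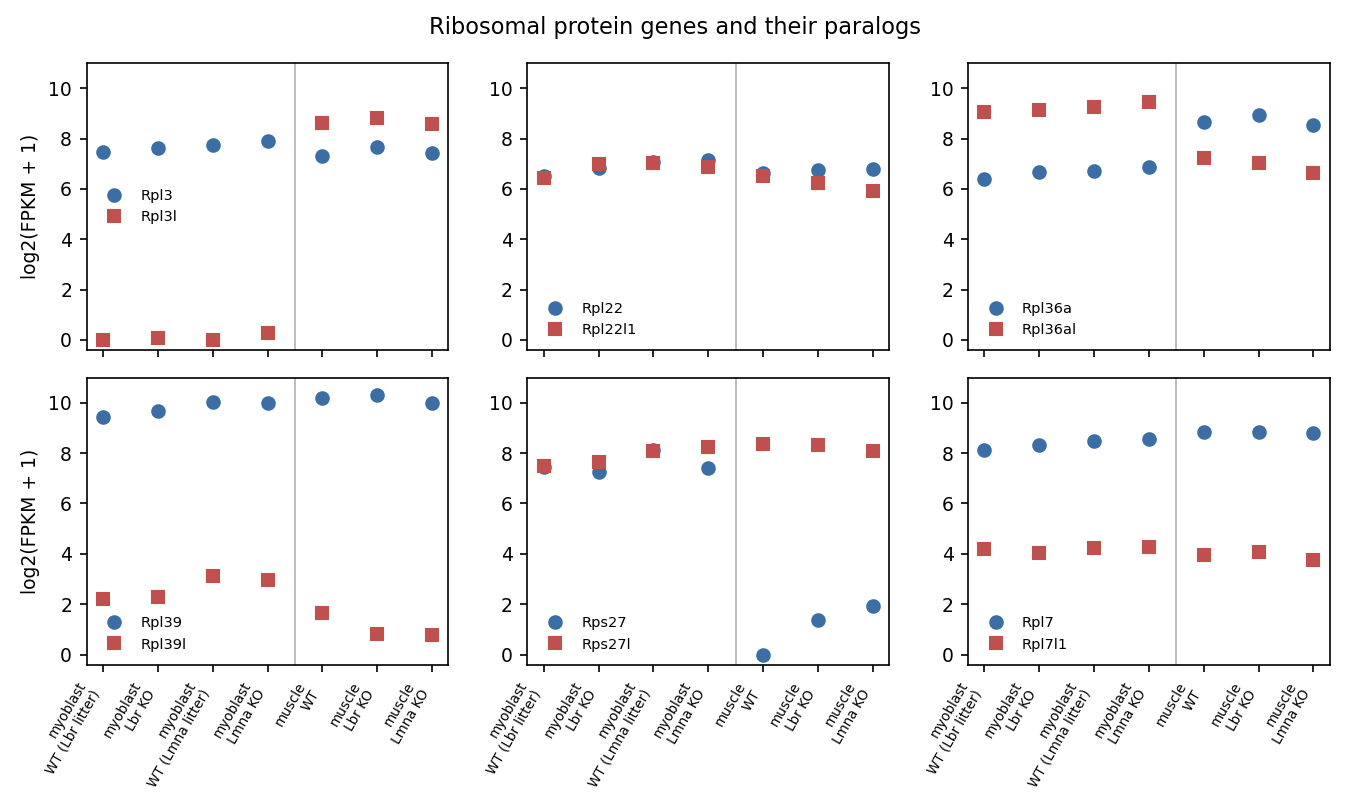
log2(FPKM + 1) of 6 ribosomal protein genes (blue circles) and their paralogs (red squares) in the 7 columns, with a grey line between myoblasts and muscle. Rpl3l stands at or near 0 in myoblasts. The rows of Rpl36a and Rpl36al, both with windows shared with pseudogenes, change places between tissues. The low Rps27 points in muscle (0, 1.57 and 2.81 FPKM) are those of its own row without the copy.

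Of the small-subunit genes, Rps12 had the largest positive fitted difference. Rps27a came next, ahead of Rps21, in a fit that included its column at 0. Rps12, a protein of the small-subunit head, was at 37.8, 37.2, 41.9 and 45.4 FPKM in myoblasts and 883, 1033 and 836 FPKM in muscle, a difference of 4.45 (SE 0.16, adjusted p = 7.03e-07). Rps21 was at 41.1, 47.2, 61.3 and 79.1 FPKM in myoblasts and 756, 880 and 751 FPKM in muscle (3.78, SE 0.23). Tissue ranges did not overlap for either gene, as for 73.75% of the set and 78.9% of all genes. Both went from the lower part of the set in myoblasts to its upper part in muscle. Rps12 shares 85.5% of its windows with pseudogenes and Rps21 75.3%, and neither has a copy row of at least 50% in the table. Rps27a was at 390, 419 and 370 FPKM in muscle, against 54.0, 0, 63.8 and 69.5 FPKM in myoblasts. Its fitted difference of 4.42 (SE 1.06) includes the column at 0, possibly a failed estimate. The size and rank of that difference are therefore uncertain.

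Further small-subunit genes rose in muscle. Rps13 was at 103 to 143 FPKM in myoblasts and 619 to 738 FPKM in muscle (2.39). Rps7 was at 84.3 to 125 and 391 to 439 FPKM (2.04), and Rps14, at the platform of the small subunit, at 107 to 194 and 510 to 641 FPKM (1.997). Rps2, at the mRNA entrance, had a difference of 1.97.

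Rps6 went the other way. This protein, the classical substrate of the S6 kinases, was at 309, 290, 340 and 337 FPKM in myoblasts and 110, 123 and 103 FPKM in muscle, a difference of -1.50 (SE 0.16, adjusted p = 7.69e-05). Rps26, at the mRNA exit, was at 275 to 474 and 177 to 212 FPKM (-0.87), and at -1.19 with its copy. Rps9 (-0.83), Rps18 (-0.74), Rps3 (-0.67) and Rps19, a gene mutated in Diamond-Blackfan anaemia (-0.54), were called lower by smaller differences. Calls of this size depend on scaling: Rpl10a, with a slightly larger difference, no longer passed with columns centred on their medians.

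Some of these differences and calls changed when copies were added. The Rps27 row alone had a difference of -6.53, with wild-type muscle at 0, and one of 0.49 with its copy (adjusted p = 0.0973, not called). Rps23 fell by 1.44 in its own row (adjusted p = 0.000208), and its difference was -0.10 with its copy (adjusted p = 0.626). Rps15a rose by 0.54 in its own row (adjusted p = 0.0151) and fell by 1.23 with its 2 copies. Rpl30 was at -1.18 in its own row (adjusted p = 0.0837) and at 0.09 with its copy (adjusted p = 0.798). With all copies added, 40 genes were higher and 17 lower.

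Of 6 ribosomal protein genes outside the symbol rule, 3 were higher in muscle and 0 lower, with a median of 0.95. With quantile normalization and with rescaling to the sum of other genes, 3 were higher and 2 lower. In Lmna muscle 5 of the 6 lay above wild type, with a median of 0.12. Fau rose by 1.61 and Rplp2, of the acidic stalk, by 1.33. Mitochondrial ribosomal proteins, a separate family that serves the mitochondrial genome, had a median of 0.54, with 41 of 76 higher and 14 lower. In the fold comparisons their median was 0.11 and 0.12 in the Lbr and Lmna myoblasts, 0.34 between the wild types and -0.04 and -0.24 in Lbr and Lmna muscle. In Lmna muscle, 7 of 76 (9.21%) lay above 0.

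Genes that make ribosomes, rather than form part of them, were lower in muscle. Of 37 ribosome assembly genes, 32 (86.5%) were lower and 0 higher, with a median of -1.34, where 51% of all genes were lower and the median of all was -0.47. With centring on the median 24 were lower and 2 higher, with quantile normalization 24 and 3, and with rescaling 35 and 0. Nop58 (-3.18) and Nop56 (-2.84), core proteins of the particles that methylate ribosomal RNA, Ebna1bp2 (-2.62) and Utp20 (-2.58) had the largest differences. Of 14 genes of the RNA polymerase I machinery, which transcribes ribosomal RNA, 10 (71.4%) were lower and 0 higher (median -0.88), led by Znrd1 (-1.60), and 7 were lower and 1 higher with centring or quantile normalization. In myoblasts the assembly genes differed from wild type by a median of -0.04 in the Lbr and 0.08 in the Lmna knockout, and 0 of 37 passed 2-fold in either.

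Translation factors were read against the same 51% of all genes lower and 27.7% higher. With centring these shares were 37.1% and 38.1%, and with quantile normalization 42.5% and 34.4%. Of 9 elongation factors 7 (77.8%) were lower and 1 higher. The higher one was Eef1a2, the muscle and nerve form of elongation factor 1A, at a mean of 0.0123 FPKM in myoblasts and 521 FPKM in muscle, while Eef1a1 fell by 1.10, from 1964 to 945 FPKM. Of 13 eIF3 subunits 2 were higher and 6 (46.2%) lower, near the share of all genes, with Eif3c at -2.12. Of 23 other initiation factors 3 were higher and 17 (73.9%) lower, led by Eif1a (-4.41), and 13 were lower with centring or quantile normalization. Of 9 other mRNAs known to start with a pyrimidine tract 3 were higher and 5 (55.6%) lower, also near that share: Tpt1 rose by 1.45, and Vim (-2.96), Npm1 (-2.09) and Pabpc1 (-2.08) fell. Of 12 tested regulators, a list that includes Rps6 itself, 7 (58.3%) were lower and 0 higher. With centring or quantile normalization 4 (33.3%) were higher, not above the share of all genes. The lower ones included Mdm2 (-3.09), Max (-2.29) and Myc (-2.08). Of 10 host genes of small nucleolar RNAs, a list that includes 3 of the ribosomal protein genes, Rpl13a and Rpl23a among them, 4 were higher and 4 lower. The higher ones were those 3 ribosomal protein genes and Snhg3 (0.77), and Snhg1 (-1.98) and Gas5 (-1.46) were among the lower. All 12 proliferation genes were lower in muscle (median -3.40), and their part in these differences was not tested.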

How the data were processed

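RNA was extracted with TRIZOL and RNeasy columns, and libraries were made with the NuGEN Ovation RNA-Seq kit (myoblasts) or the NuGEN complete RNA-Seq kit (muscle), per the labels' protocols. The deposited table gives FPKM values that the authors computed, with 7 columns that were each matched to a group by name and 0 left unmatched. The genome build was mm9, per the submitters' processing notes. The aligner, quantifier and annotation, and how multi-mapping reads were treated, were not given in the sources used here. Depth is unknown, and no counting interval is given.

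Values were taken as log2(FPKM + 1) over genes averaging 1 FPKM or more. Comparisons of single columns used a 2-fold rule, without columns listed at 0 and without a test. The 7-column fit used limma 3.58.1 in R 4.3.3 with Benjamini-Hochberg adjustment over all genes, columns listed at 0 included, and was tested on simulated data. Other steps used Python 3.11.15, pandas 2.3.3, numpy 2.4.6 and matplotlib 3.10.9. Nothing says how separate the samples of a group were, and p-values measure the spread between columns, which may be technical.

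Copies were sought with 31-base windows in GENCODE M21 transcripts, and start sequences came from RefSeq (GRCm38.p6). Named genes were those past the call rule in a comparison (up to 10 in each direction), the 5 of highest and 5 of lowest mean, the 5 of widest and 5 of narrowest range, paralogs with their parents, genes listed at 0, and up to 4 of each other list. Others were named after their values were seen. The genes and lists were chosen with earlier results of these data known. Alternatives changed the pseudocount, filter, scaling, wild type, variance prior and weights, or left out each column; added copies, zeros, a litter term and interaction terms were chosen after seeing the data. Some genes that the rule would name are not reported here.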

Additional observations from a re-analysis of the deposited data

How the results depend on the processing

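No paired analysis was possible because the columns carry no replicate number and the wild-type muscle column names no litter. Litter is named for the myoblast columns only. A litter term for the myoblast columns, added after seeing the data, gave 0 calls for each knockout and 69 between tissues (45 higher, 24 lower). Adding copies, chosen after seeing the data, moved the 2-fold count from 1 to 0 in Lbr myoblasts, from 2 to 1 in Lmna myoblasts and from 2 to 0 in Lmna muscle. It reversed, among others, Rpl26 in Lbr (0.17) and Lmna (0.20) myoblasts, and Rpl30 (0.081) and Rpl26 (0.21) in Lbr muscle. Between tissues it reversed Rpl30 (0.094), Rps15a (-1.23) and Rps27 (0.49). Keeping columns at 0 gave 2 calls in Lbr myoblasts, with Rps27a added. A pseudocount of 0.1 gave 1 call in Lbr muscle, and a pseudocount of 5 gave 1 in Lmna muscle and 1 in Lmna myoblasts. Rescaling to the other genes' sum gave 1 call in Lmna muscle and a litter median of 0.28. Quantile normalization gave 1 call and a median of 0.20 between litters, and a median of 0.059 in Lmna myoblasts. Centring gave medians of 0.034 in Lbr muscle and -0.19 in Lmna muscle. Against both wild types the median was -0.047 in Lbr myoblasts and 0.36 in Lmna myoblasts, with 1 call in the latter. Against the other litter's wild type the medians were -0.25 and 0.58, with 2 and 4 calls. Leaving out a column gave 47 to 59 calls between tissues and 0 to 1 for each knockout. Without Lbr-knockout muscle the call was Rps27a, for which the Lbr arm is then 1 column listed at 0, possibly a failed estimate, so no value is given. Without Lmna-knockout muscle it was Rpl26 (-2.80, adjusted p = 0.0342 by limma), with 1 column in that arm, assumed to vary like the others. The other causes were not tested. Unknown depth limits statements on genes near 0.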
